A study of Bos taurus with 15 samples.

Results

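Bovine blastocysts were examined for 10 mRNAs that could trace the cargo of oviduct extracellular vesicles (oEVs): OVGP1, CLU, MUC1, PAX8, GRP, HSPB6, GNG11, CRIP2, EPHX2 and SAT1. The 10 genes were found by symbol among the 34773 genes of the unfiltered count table. The authors' filtered table of 10832 genes holds 9 of them, and OVGP1 lies outside it. All 10 stand on the study's list of the 500 most abundant oEV mRNAs, which was ranked by vesicle levels of an earlier study that were not analysed here. The choice of these 10 from that list was made with earlier results of the embryo data known, so it is not independent of them.

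RNA was sequenced from pools of 8 to 14 in vitro produced embryos, labelled day 7, that were cultured without oEVs (Co), with oEVs used fresh (FeEV) or with oEVs that had been frozen (FoEV). The oEVs came from the oviduct fluid of slaughterhouse cows judged to be postovulatory, and the breed, age and number of these cows are not given in the sources used here. Each treatment had 5 libraries, each made from 1 ng of RNA of 1 pool, out of 6 Co, 7 FeEV and 8 FoEV pools from which the authors took those with the best RNA quality and concentration. Nothing in the labels says that the pools came from separate cultures or oEV preparations, so the p-values measure the spread between these pools, which may be partly technical. The study states that fresh and frozen oEVs were portions of material from the same oviducts and differed only in freezing and thawing. Which FeEV and FoEV pools shared material is not given in the sources used here, and the main fit did not pair them.

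The oviduct epithelium is made of secretory and ciliated cells. Secretory cells release glycoproteins, enzymes and peptides into the fluid around the embryo, and vesicles shed into that fluid carry proteins and RNA. OVGP1 (oviductin) is a secreted glycoprotein made almost only by oviduct secretory cells, whereas clusterin, MUC1 and the polyamine enzyme SAT1 are made by many epithelia and other cell types. An mRNA with few reads of its own in the embryo leaves more room for added vesicle RNA to be seen. The embryo count table does not separate an mRNA molecule brought in by an oEV from one transcribed in the embryo, and in bulk pools fewer cells of a type cannot be told apart from less RNA per cell.

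None of the 10 mRNAs differed between treatments at an adjusted p under 0.05 (edgeR quasi-likelihood test with Benjamini-Hochberg adjustment over 17993 genes). In FoEV vs. Co, the log2 fold change was above 0 for 3 of them and below 0 for 7, and its median was -0.13 beside 0.04 over all genes tested. In FeEV vs. Co, all 10 had a fold change below 0, with a median of -0.42 beside 0.01 over all genes. In FoEV vs. FeEV, all 10 had a fold change above 0, with a median of 0.39 beside 0.03. The last 2 comparisons share the 5 FeEV libraries. In no comparison did any of the 10 mRNAs have treatments whose libraries did not overlap, against 1.96% of all genes for FoEV vs. Co, 0.906% for FeEV vs. Co and 1.31% for FoEV vs. FeEV.

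**Figure D1:**
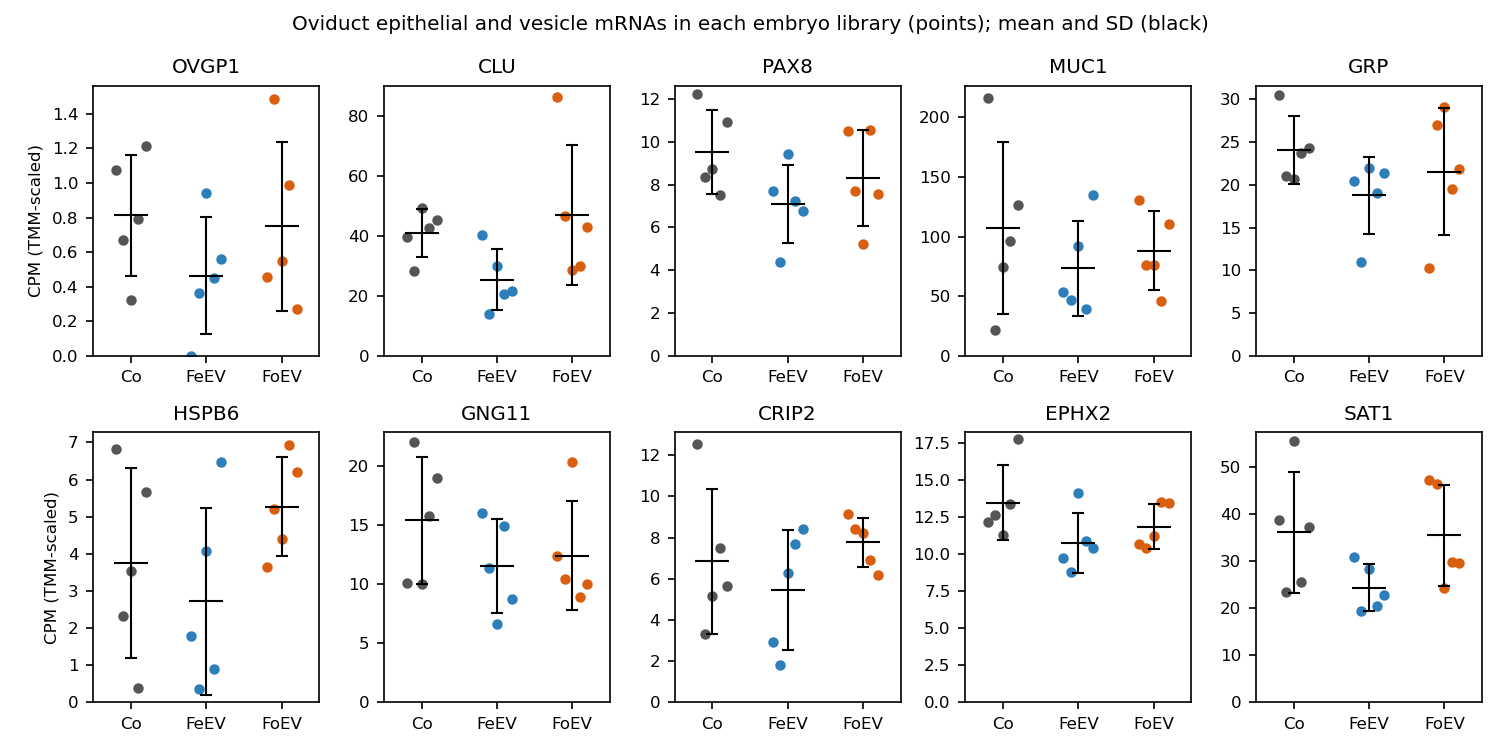
Level (CPM, counts scaled by TMM) of the 10 mRNAs in each library of Co, FeEV and FoEV embryos, with a separate linear axis from 0 for each gene. Points are libraries (5 per treatment), and the black mark and bar give the mean and SD. In every panel the points of the 3 treatments overlap, and OVGP1 stays under 1.49 CPM.

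The libraries held 2136713 to 4058887 reads on genes (Co median 2779168, FeEV median 3065710, FoEV median 3781117), and ribosomal RNA genes took 15.5% to 28.2% of them. Levels are given below as CPM, which is the share of all reads on genes, per 1000000 reads, after scaling by the trimmed mean of M values (TMM). A single read was worth 0.228 to 0.453 CPM. Transcript lengths were not used, so levels are compared between libraries and not between genes.

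OVGP1 was close to the limit of detection in every treatment. A total of 32 reads was counted in the 15 libraries. The Co libraries held 3, 2, 1, 2 and 3 reads, the FeEV libraries 0, 1, 3, 1 and 2, and the FoEV libraries 2, 6, 2, 3 and 1. The control libraries, which had received no vesicles, thus held OVGP1 reads as well, in 5 of 5 libraries. The single FeEV library at 0 reads allows a level of up to 0.887 CPM (3 reads), which is above the mean of each treatment.

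Summed over a treatment, OVGP1 gave 11 reads in Co, 7 in FeEV and 14 in FoEV. This corresponded to 0.792 CPM in Co (95% exact Poisson interval 0.395 to 1.42), 0.465 CPM in FeEV (0.187 to 0.957) and 0.745 CPM in FoEV (0.407 to 1.25). These intervals cover counting error only, and they overlap. The mean of the libraries was 0.814 ± 0.351 CPM in Co, 0.465 ± 0.340 in FeEV and 0.750 ± 0.489 in FoEV (n = 5, SD). The fitted log2 fold change was -0.09 for FoEV vs. Co (SE 0.68, adjusted p = 0.9752), so a level between 0.36 and 2.44 times that of Co lay within the 95% interval. For FeEV vs. Co it was -0.74 (SE 0.75, adjusted p = 0.9947, 0.209 to 1.73 times the level of Co), and for FoEV vs. FeEV 0.64 (SE 0.72, adjusted p = 0.8653, 0.563 to 4.32 times the level of FeEV).

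OVGP1 belongs by sequence to the chitinase-like proteins. Of the 6 family members listed, 3 passed the minimum of 10 reads over all libraries, and none of them differed between treatments. CHID1, which encodes a lysosomal and secreted chitinase-domain protein, had 25.6 ± 5.43 CPM in Co, 25.3 ± 3.22 in FeEV and 29.2 ± 4.57 in FoEV. CHI3L2, a chitinase-like lectin, had 1.16 ± 1.09, 1.44 ± 0.965 and 2.33 ± 1.19 CPM in the same order. CHIA and CHIT1, the 2 active chitinases on the list, were at 0 reads in all 15 libraries, and CHI3L1 had 1 read.

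MUC1 encodes a membrane mucin of the apical surface of epithelia. It was the most variable of the better covered mRNAs among pools of 1 treatment. The Co libraries held 217, 22.0, 74.5, 96.6 and 127 CPM, the FeEV libraries 53.2, 46.9, 92.3, 38.9 and 135 CPM, and the FoEV libraries 131, 76.0, 76.1, 46.2 and 111 CPM. The highest and the lowest of the 15 libraries were both controls, which differed 9.83-fold, and all 3 treatments overlapped. The biological coefficient of variation fitted for MUC1 was 0.416, against 0.137 for genes of its level. The log2 fold change was -0.27 for FoEV vs. Co (SE 0.51, adjusted p = 0.8854), -0.53 for FeEV vs. Co (SE 0.52, adjusted p = 0.9947) and 0.25 for FoEV vs. FeEV (SE 0.52, adjusted p = 0.9293). Without the first Co library, FoEV vs. Co was 0.16.

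Of the other membrane mucins, 4 more passed the minimum of 10 reads, and none was called in any comparison. MUC20 had 40.4 ± 8.89 CPM in Co, 37.7 ± 5.19 in FeEV and 44.5 ± 12.5 in FoEV. MUC16, a very large mucin that oviduct and endometrium also make, had 14.2 ± 4.99 CPM in Co, 7.83 ± 2.18 in FeEV and 12.4 ± 6.86 in FoEV. Its log2 fold change for FeEV vs. Co was -0.86 (unadjusted p = 0.02658, adjusted p = 0.9947).

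CLU encodes clusterin, a secreted chaperone that is abundant in reproductive tract fluids. The Co libraries held 39.9, 28.4, 49.3, 42.6 and 45.3 CPM. The FeEV libraries held 40.5, 13.9, 30.1, 20.8 and 21.6 CPM, and the FoEV libraries 86.5, 46.8, 28.6, 30.0 and 43.1 CPM. Of the FeEV libraries, 3 lay below every Co library, and the other 2 lay among them. The first FoEV library was the highest of all 15, and the other 4 lay within the range of Co.

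The mean level of CLU was 41.1 ± 7.91 CPM in Co, 25.4 ± 10.2 in FeEV and 47.0 ± 23.5 in FoEV (n = 5, SD). The log2 fold change was 0.21 for FoEV vs. Co (SE 0.32, adjusted p = 0.8579) and -0.14 without the first FoEV library. It was -0.68 for FeEV vs. Co (SE 0.34, adjusted p = 0.9947). For FoEV vs. FeEV it was 0.88 (SE 0.34, unadjusted p = 0.02096, adjusted p = 0.5974), and 0.54 without the first FoEV library.

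Clusterin is taken up by receptors of the LDL receptor family. LRP2 (megalin), an endocytic receptor, had 5261 ± 1260 CPM in Co, 4671 ± 1694 in FeEV and 3687 ± 1133 in FoEV, and its log2 fold change for FoEV vs. Co was -0.51 (unadjusted p = 0.0822). LRP8 had 10.2 ± 1.22, 10.6 ± 5.36 and 12.5 ± 2.04 CPM. None of the 4 genes of this list was called in any comparison.

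PAX8, a transcription factor of the oviduct epithelium and of the Müllerian duct from which it forms, was read in all 15 libraries. The Co libraries held 12.2, 8.35, 8.70, 7.49 and 10.9 CPM, the FeEV libraries 7.69, 4.40, 9.42, 7.25 and 6.75, and the FoEV libraries 10.5, 7.68, 5.22, 10.6 and 7.54. The lowest library was FeEV and the highest Co, and 4 of 5 FoEV libraries lay within the range of Co. The log2 fold change was -0.20 for FoEV vs. Co (SE 0.24, adjusted p = 0.7966), -0.42 for FeEV vs. Co (SE 0.25, adjusted p = 0.9947) and 0.22 for FoEV vs. FeEV (SE 0.24, adjusted p = 0.8653). For FoEV vs. Co, a level of 0.622 to 1.22 times that of Co lay within the 95% interval. In the reference annotation used here, of a later assembly than the counts, PAX8 overlaps another locus, and whether the counting used the strand is not given in the sources used here, so reads of such a partner could not be separated.

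Among the other PAX genes, PAX9 had a mean of 1.71 CPM and PAX5 of 1.43 CPM over all libraries. Of the 8 PAX genes found in the table, 6 passed the minimum of 10 reads, and none was called. PAX1 was at 0 reads.

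GRP encodes gastrin-releasing peptide, a small peptide of the bombesin family. Control libraries held 30.5, 21.0, 20.6, 23.7 and 24.3 CPM, the FeEV libraries 20.4, 10.99, 22.0, 19.0 and 21.4, and the FoEV libraries 10.3, 27.0, 29.1, 19.5 and 21.8. The second FeEV and the first FoEV library were the lowest of the 15, and the other libraries of each treatment lay among the controls or just below them. Its log2 fold change was -0.16 for FoEV vs. Co (SE 0.22, adjusted p = 0.8373), -0.35 for FeEV vs. Co (SE 0.22, adjusted p = 0.9947) and 0.19 for FoEV vs. FeEV (SE 0.22, adjusted p = 0.8742). The related peptide NMB had 1.29 ± 0.478 CPM in Co, 0.865 ± 0.234 in FeEV and 1.36 ± 0.943 in FoEV. Of the 3 receptors of these peptides, GRPR had 3 reads in all and NMBR and BRS3 had 0 reads.

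HSPB6 encodes a small heat shock protein best known from muscle. It was scarce and uneven in the pools that had received no or fresh oEVs. Control libraries held 6.82, 2.34, 3.55, 0.394 and 5.66 CPM, the FeEV libraries 1.78, 0.366, 4.08, 0.906 and 6.47, and the FoEV libraries 3.65, 5.20, 4.40, 6.93 and 6.20. All 5 FoEV libraries lay above the median of each of the other treatments, but only 1 lay above every control library. The range was 1 to 19 reads in Co, 1 to 23 in FeEV and 16 to 23 in FoEV.

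The mean level of HSPB6 was 3.75 ± 2.57 CPM in Co, 2.72 ± 2.53 in FeEV and 5.28 ± 1.32 in FoEV (n = 5, SD). Its log2 fold change was 0.48 for FoEV vs. Co (SE 0.51, adjusted p = 0.7747), -0.38 for FeEV vs. Co (SE 0.56, adjusted p = 0.9947) and 0.86 for FoEV vs. FeEV (SE 0.52, adjusted p = 0.7253). The 95% interval for FoEV vs. Co ran from 0.661 to 2.93 times the level of Co. Leaving out the fifth FeEV library gave -1.001 for FeEV vs. Co and 1.47 for FoEV vs. FeEV, and leaving out the first Co library gave -0.05 for FeEV vs. Co and 0.81 for FoEV vs. Co.

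Other small heat shock proteins were covered at very different depths. HSPB1, the general stress chaperone of this family, had 829 ± 60.4 CPM in Co, 754 ± 92.6 in FeEV and 892 ± 76.9 in FoEV, and its log2 fold change for FoEV vs. FeEV was 0.24 (unadjusted p = 0.01292, adjusted p = 0.5684). HSPB8 had 8.91 ± 5.15, 7.33 ± 3.37 and 8.75 ± 4.81 CPM. Of the 9 genes of this list, 5 passed the minimum of 10 reads and none was called.

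GNG11, a gamma subunit of heterotrimeric G proteins, and CRIP2, a LIM domain protein, differed in how even they were. For GNG11 the Co libraries held 10.1, 22.0, 9.99, 15.8 and 19.0 CPM, the FeEV libraries 15.97, 11.4, 6.59, 14.9 and 8.71, and the FoEV libraries 12.3, 10.4, 20.3, 8.91 and 9.97. The highest library was a control, and 3 of 5 FoEV libraries lay within the range of Co. Its log2 fold change was -0.30 for FoEV vs. Co (SE 0.27, adjusted p = 0.7126), which is the smallest adjusted p of the 10 mRNAs in that comparison. It was -0.42 for FeEV vs. Co (SE 0.27, adjusted p = 0.9947) and 0.12 for FoEV vs. FeEV (SE 0.27, adjusted p = 0.9393).

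For CRIP2 the Co libraries held 12.6, 3.34, 5.16, 7.49 and 5.66 CPM, the FeEV libraries 2.96, 1.83, 6.28, 7.70 and 8.43, and the FoEV libraries 9.13, 8.42, 8.24, 6.93 and 6.20. The 5 FoEV libraries were close together, at 7.78 ± 1.19 CPM, and all lay above the median of Co and within its range. Its log2 fold change was 0.20 for FoEV vs. Co (SE 0.33, adjusted p = 0.8622), -0.32 for FeEV vs. Co (SE 0.35, adjusted p = 0.9947) and 0.52 for FoEV vs. FeEV (SE 0.33, adjusted p = 0.734). Without the first Co library, FoEV vs. Co was 0.54 and FeEV vs. Co 0.02.

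Among the other G protein gamma subunits, GNG5 had a mean of 104 CPM over all libraries, GNG2 26.4 CPM and GNG10 20.2 CPM. Among the CRIP and CSRP proteins, which share the LIM domain with CRIP2, CSRP2 had 519 CPM, CRIP1 163 CPM and CSRP1 17.5 CPM. Neither list had a gene that was called, out of 9 and 5 genes that passed the minimum of 10 reads. For FoEV vs. Co, 5 of the 9 gamma subunits and 5 of the 5 LIM proteins had a fold change above 0, beside 55.1% of all genes.

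EPHX2, the soluble epoxide hydrolase that converts epoxides of fatty acids to diols, was the most even of the 10 mRNAs. Control libraries held 12.2, 12.7, 11.3, 13.4 and 17.8 CPM, the FeEV libraries 9.76, 8.79, 14.1, 10.9 and 10.4, and the FoEV libraries 10.7, 10.4, 11.3, 13.5 and 13.5. Of the FeEV libraries, 4 lay below every control, and so did 3 of the FoEV libraries, the closest of them by less than 0.1 CPM. The fitted log2 fold change was -0.18 for FoEV vs. Co (SE 0.19, adjusted p = 0.7681), -0.31 for FeEV vs. Co (SE 0.20, adjusted p = 0.9947) and 0.13 for FoEV vs. FeEV (SE 0.19, adjusted p = 0.905). The 95% interval for FoEV vs. Co ran from 0.675 to 1.16 times the level of Co. EPHX3 had 10.6 ± 2.87, 9.52 ± 1.65 and 9.48 ± 2.24 CPM in Co, FeEV and FoEV, and EPHX1, the microsomal enzyme, 4.17 ± 2.08, 4.36 ± 1.24 and 3.64 ± 1.02. In the later annotation, EPHX2 overlaps a locus that held 1821 reads here, more than the 569 of EPHX2, so its level is uncertain if reads were counted without strand.

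SAT1 encodes spermidine/spermine N1-acetyltransferase, which starts the breakdown of polyamines. Control libraries held 38.8, 23.4, 55.5, 25.6 and 37.2 CPM, the FeEV libraries 30.8, 19.4, 28.3, 20.4 and 22.8, and the FoEV libraries 47.3, 46.3, 24.2, 29.7 and 29.6. Of the FeEV libraries, 3 lay below every control, whereas all FoEV libraries lay within the range of Co. The mean was 36.1 ± 12.8 CPM in Co, 24.3 ± 4.98 in FeEV and 35.4 ± 10.6 in FoEV (n = 5, SD). The fitted log2 fold change was -0.02 for FoEV vs. Co (SE 0.23, adjusted p = 0.9816). It was -0.56 for FeEV vs. Co (SE 0.24, unadjusted p = 0.03429, adjusted p = 0.9947) and 0.54 for FoEV vs. FeEV (SE 0.24, unadjusted p = 0.03835, adjusted p = 0.6397). A locus that overlaps SAT1 in the later annotation held 3 reads in all libraries.

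The polyamine pathway was well covered. ODC1, the first enzyme of polyamine synthesis, had 844 ± 51.5 CPM in Co, 894 ± 104 in FeEV and 907 ± 78.0 in FoEV. AZIN1, which shields ODC1 from its inhibitor antizyme, had 256 ± 25.3, 263 ± 44.6 and 217 ± 28.0 CPM, with a log2 fold change for FoEV vs. Co of -0.24 (unadjusted p = 0.03408). AMD1, which supplies the aminopropyl groups, had 158 ± 5.99, 162 ± 10.9 and 139 ± 18.4 CPM. None of the 11 genes of the list was called. Without the adjustment, 2 had a p under 0.05 for FoEV vs. Co (1 higher, 1 lower), beside 11.3% of all genes. For FeEV vs. Co it was 1 (SAT1), beside 3.96%, and for FoEV vs. FeEV 4 (2 higher, 2 lower), beside 7.53%.

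**Figure D2:**
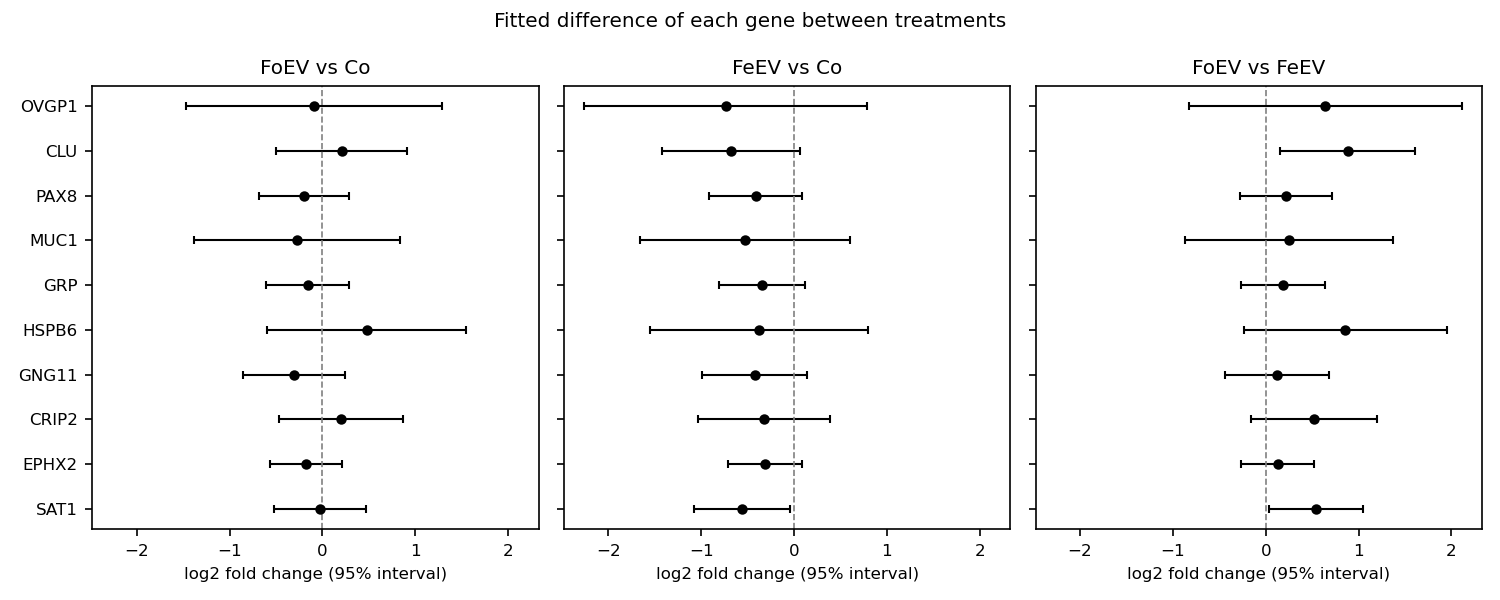
Log2 fold change of each of the 10 mRNAs (points) with its 95% interval (bars) for FoEV vs. Co, FeEV vs. Co and FoEV vs. FeEV, from the quasi-likelihood fit of edgeR over 15 libraries. For FoEV vs. Co all 10 intervals include 0. SAT1 excludes 0 for FeEV vs. Co, and CLU and SAT1 exclude 0 for FoEV vs. FeEV, without adjustment.

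The 3 comparisons were set against the whole table. For FoEV vs. Co, 0 of the 10 mRNAs were called at an adjusted p under 0.05, beside 0.00556% of all genes (1 gene), and 0 had an unadjusted p under 0.05, beside 11.3% of all genes (6.52% of all genes were past it and higher in FoEV). The single gene called was ETNK1, an ethanolamine kinase that is not on the list, with 110 ± 11.7 CPM in FoEV and 177 ± 16.7 in Co (adjusted p = 0.004624). The study, with a robust dispersion and its own thresholds, reported more genes in each comparison. It also reported its vesicle list as enriched among genes higher in FoEV than in Co. The adjusted p of the 10 mRNAs ran from 0.7126 to 0.9816. Under the Wald test of DESeq2, 140 genes were called and none of the 10. That test gave no adjusted p for OVGP1, PAX8, HSPB6, CRIP2 and EPHX2 in this comparison, so these could not be called by it.

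For FeEV vs. Co, 0 of the 10 were called, beside 0.0% of all genes, and 1 (SAT1) had an unadjusted p under 0.05, beside 3.96%. For FoEV vs. FeEV, 0 were called, beside 0.0% of all genes, and 2 (CLU and SAT1) had an unadjusted p under 0.05, beside 7.53%, both higher in FoEV, beside 4.36% past it and higher. The quasi-likelihood test of edgeR gave 713 and 1354 genes at an unadjusted p under 0.05 in these comparisons, and DESeq2 called 1 and 2 genes with its Wald test. Fold changes above 0 made up 52.2% of all genes for FeEV vs. Co and 53.7% for FoEV vs. FeEV, beside 0 and 10 of the 10 mRNAs.

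The second FeEV library was the lowest of all 15 for 6 of the 10 mRNAs, and the first Co library was the highest for 4. Without the second FeEV library, the 10 mRNAs still had 10 fold changes below 0 for FeEV vs. Co and 10 above 0 for FoEV vs. FeEV, with 0 and 1 at an unadjusted p under 0.05. The unadjusted counts were also 0 and 1 without the fourth FeEV library. Over all 15 omissions of 1 library, the number below 0 for FeEV vs. Co was 9 or 10, and the number above 0 for FoEV vs. Co ran from 3 to 6.

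Marker lists of oviduct cells and of other cell types were also read. They cannot show the tissue of origin, since Co embryos, which received no oEVs, held EPCAM, MUC1 and KRT7 as well. Of 16 markers of oviduct secretory cells, 15 passed the minimum of 10 reads, and those with the highest means were EPCAM, an adhesion molecule of epithelia, with 322 ± 13.2 CPM in Co, 316 ± 35.7 in FeEV and 330 ± 49.3 in FoEV, MUC1, and KRT7, with 47.1 ± 9.15, 36.1 ± 4.48 and 49.3 ± 6.99. Reads per marker over all 15 libraries ran from 3 for MSLN and 32 for OVGP1 to 396 for PAX8, 555 for MUC16 and 15505 for EPCAM, MSLN being named after its value was seen. Summed over the list, with EPCAM as the largest part, the level ran from 476 to 745 CPM in Co, 452 to 596 in FeEV and 470 to 756 in FoEV, so the treatments overlapped. None of the 15 genes was called in any comparison. For FeEV vs. Co, 12 had a fold change below 0 and KRT7 and MUC16 an unadjusted p under 0.05, beside 52.2% of all genes above 0 and 3.96% under 0.05. For FoEV vs. FeEV 14 had a fold change above 0 and 3 an unadjusted p under 0.05, beside 53.7% and 7.53% of all genes. The list holds 4 of the 10 mRNAs.

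Markers of oviduct ciliated cells had few reads. Of the 13 found in the table, 8 passed the minimum of 10 reads, and apart from HYDIN, with 24.9 ± 5.25 CPM in Co, 32.8 ± 8.96 in FeEV and 33.1 ± 7.53 in FoEV, none had a mean over 1 CPM. HYDIN, which encodes a protein of motile cilia, had a log2 fold change of 0.41 for FoEV vs. Co (unadjusted p = 0.03559) and of 0.40 for FeEV vs. Co (unadjusted p = 0.04451). SPAG6 and CCDC78, both of motile cilia, had means of 0.949 and 0.942 CPM. FOXJ1, the regulator of motile cilia, named after its value was seen, had 13 reads in all, with 9 in Co, 1 in FeEV and 3 in FoEV. It went the other way from HYDIN, with a log2 fold change of -1.76 for FoEV vs. Co (unadjusted p = 0.08181). For FeEV vs. Co it was -2.71 (unadjusted p = 0.02579, adjusted p = 0.9947). The summed level, most of it HYDIN, was 21.3 to 37.2 CPM in Co, 25.6 to 45.8 in FeEV and 27.8 to 44.5 in FoEV. None of the 8 genes was called.

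Lists of other cell types gave no call either. Stromal and muscle genes had 107 to 262 CPM in Co, 109 to 206 in FeEV and 134 to 256 in FoEV in sum, led by ACTA2, COL1A2 and COL1A1. Blood and immune markers had 68.8 to 84.0, 79.1 to 96.9 and 74.0 to 105 CPM, nearly all of it PECAM1, with CD68 and CD14 next, while HBB was at 0 reads. Cumulus and granulosa markers had 53.4 to 126, 63.0 to 128 and 64.8 to 151 CPM, led by CYP11A1, CYP19A1 and FSHR.

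Blastocyst markers were covered by many reads. KRT8 and KRT18, keratins of the trophectoderm, had means of 4680 and 3249 CPM, and GATA6, of the primitive endoderm and trophectoderm, 419 CPM. Their list of 11 genes summed to 7133 to 9168 CPM in Co, 7547 to 11090 in FeEV and 8744 to 11580 in FoEV, most of it KRT8 and KRT18. In FoEV vs. Co, 5 of the 11 had an unadjusted p under 0.05, 4 of them higher, beside 11.3% of all genes under 0.05 and 6.52% under it and higher, and none was called. The lower one was NANOG, a pluripotency factor, named after its value was seen. It had 79.4 ± 19.3 CPM in Co and 44.5 ± 16.7 in FoEV (log2 fold change -0.83, unadjusted p = 0.01046, adjusted p = 0.2791). The smallest adjusted p was that of KRT18 (0.1145), with 2653 ± 397 CPM in Co and 3885 ± 522 in FoEV. The part of the cell makeup of the pools in the levels of the 10 mRNAs was not tested.

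**Figure D3:**
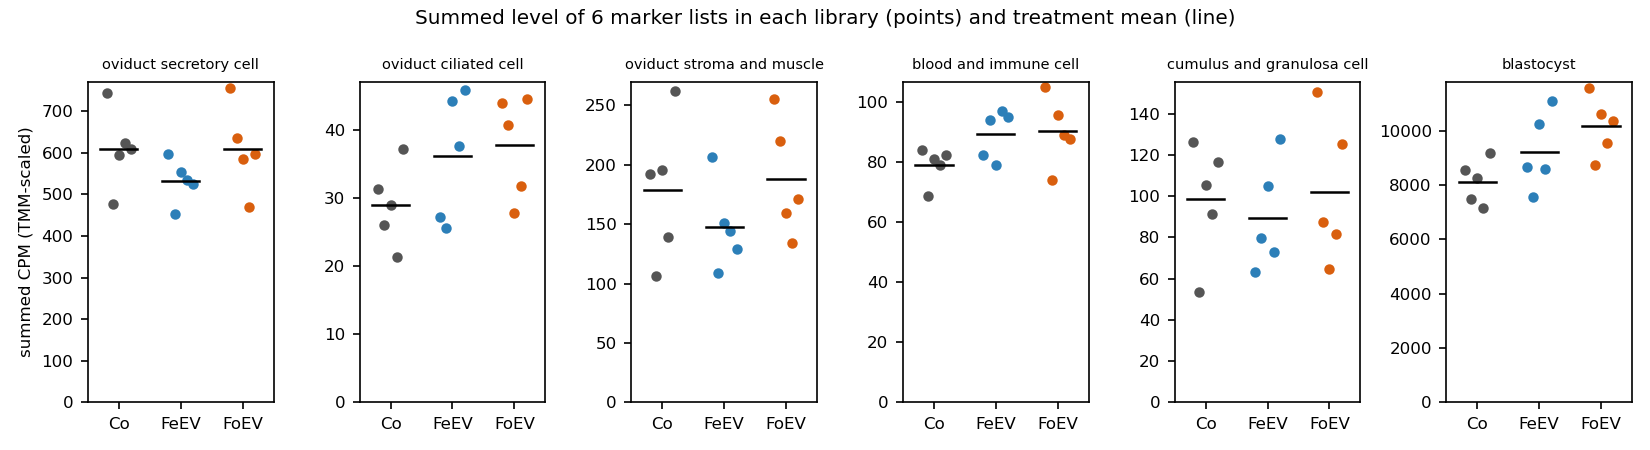
Summed CPM (TMM-scaled) of 6 lists of marker genes in each library, with a separate linear axis from 0 for each list. Points are libraries (5 per treatment) and lines are treatment means. The treatments overlap in every list. EPCAM, HYDIN and PECAM1 are the largest parts of the secretory, ciliated and blood lists.

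Scarce vesicle mRNAs were also examined as a group. The supplement's vesicle list gave 477 symbols, of which 458 matched a gene of the table and 451 passed the minimum of 10 reads. None of the 458 was at 0 reads. Of the 451, 29 had a mean under 5 CPM over all libraries, among them OVGP1 and HSPB6.

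In FoEV vs. Co, 20 of these 29 mRNAs had a fold change above 0 and 9 below, which is 69.0% above, beside 59.4% of the 7616 genes with a mean under 5 CPM. The median log2 fold change was 0.38, beside 0.15 for those 7616 genes. None was called, and 5 had an unadjusted p under 0.05, all 5 higher in FoEV, beside 6.0% of those genes in either direction. For FeEV vs. Co, 15 were above 0 and 14 below, with a median of 0.11 beside -0.03, and for FoEV vs. FeEV 22 were above 0 and 7 below, with a median of 0.50 beside 0.15. FoEV libraries were also deeper than Co libraries, as given above, and the part of depth in these counts was not tested. No share of the 7616 genes under 0.05 and higher in FoEV is given. The minimum number of reads was counted over all libraries together. CTXN1, of the 5, had 2 reads in Co, 3 in FeEV and 14 in FoEV, so it passed only through its FoEV reads. Some others of the 20, such as RIBC1 (1, 5 and 6 reads), also needed their FoEV reads. FOXJ1, of the 9 below 0, needed its Co reads (9, 1 and 3 reads).

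Summed over the 29 mRNAs, the level was 47.7 ± 10.5 CPM in Co (range 37.1 to 61.8), 43.0 ± 5.16 in FeEV (37.0 to 51.2) and 59.99 ± 8.10 in FoEV (50.1 to 71.7). FoEV and Co libraries overlapped, and so did FoEV and FeEV libraries, the latter over a span of about 1 CPM. No matching sum over all genes under 5 CPM is given. Of those 7616 genes, 59.4% also had a fold change above 0 for FoEV vs. Co. The part of vesicle RNA in the sum was not tested.

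The 5 scarce vesicle mRNAs with the smallest p for FoEV vs. Co were RARRES1, TST, CRYAB, NPDC1 and CTXN1. RARRES1, a retinoid-responsive membrane protein, had 2.26 ± 1.10 CPM in Co, 3.31 ± 1.15 in FeEV and 4.61 ± 1.23 in FoEV (log2 fold change for FoEV vs. Co 1.04, SE 0.36, adjusted p = 0.2583). TST, a mitochondrial sulfurtransferase, had 1.67 ± 0.656, 3.00 ± 0.961 and 3.35 ± 1.24 CPM (1.01, SE 0.41, adjusted p = 0.326). CRYAB, a small heat shock protein like HSPB6, had 2.27 ± 0.993, 2.67 ± 1.502 and 4.53 ± 1.53 CPM (0.97, SE 0.39, adjusted p = 0.3271). NPDC1 had 3.03 ± 1.48, 3.37 ± 1.12 and 5.23 ± 1.17 CPM (0.80, SE 0.35, adjusted p = 0.3693). CTXN1 had 2 reads in Co, 3 in FeEV and 14 in FoEV (adjusted p = 0.3923). These 5 were picked by their p in this comparison, so their direction is a description.

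**Figure D4:**
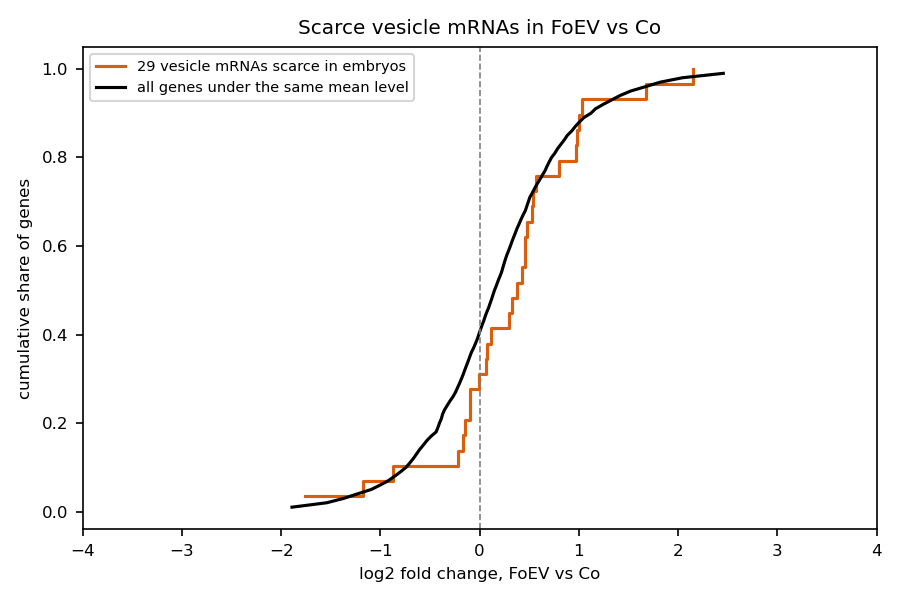
Cumulative share of genes (vertical axis) against the log2 fold change for FoEV vs. Co (horizontal axis) for the 29 vesicle mRNAs with a mean under 5 CPM (orange steps) and for all 7616 genes under that mean (black line, from the 1st to the 99th percentile). The medians are 0.38 and 0.15.

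Finally, the 10 mRNAs were compared with each other and with all genes by the Pearson r of log2 CPM (prior count of 2 reads) over the 15 libraries, as a description without a test. Of the pairs among the 8 mRNAs with a mean of at least 5 CPM, CLU and SAT1 were the most alike (r = 0.84), followed by MUC1 and CRIP2 (r = 0.635), CLU and PAX8 (r = 0.628) and PAX8 and SAT1 (r = 0.614). MUC1 and GNG11 were the least alike (r = -0.372). The libraries share their pool, depth and composition across genes, and the values include any difference between treatments.

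Among the 10377 genes with a mean of at least 5 CPM, MUC1 was most like SSLP1 (r = 0.939) and LOXL2 (r = 0.931). SSLP1 ran from 18.0 to 119 CPM, with its lowest and its highest library the same Co libraries as for MUC1. CLU was most like NOTCH1 and ADAMTSL5 (both r = 0.905), and SAT1 was most like LOC104968627 (r = 0.904) and ACP3 (r = 0.893). CRIP2 was most like VPS26B (r = 0.864) and MAP2K3 (r = 0.855), and GRP was most like TACC2 (r = 0.847) and LGALS4 (r = 0.82). For GNG11 these were PLK4 (r = 0.823) and COQ2 (r = 0.81), for PAX8 NFKBIZ (r = 0.799) and AMPD2 (r = 0.79), and for EPHX2 CCL24 (r = 0.765) and SSH3 (r = 0.712). OVGP1 and HSPB6 were under 5 CPM and were not compared.

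**Figure D5:**
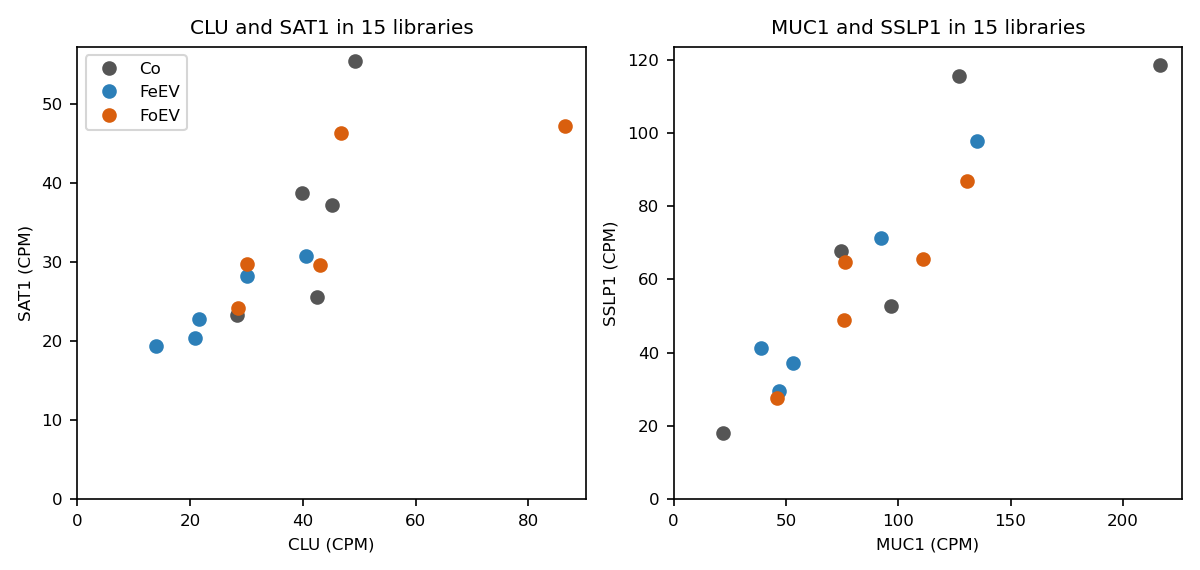
CPM of SAT1 against CLU (left) and of SSLP1 against MUC1 (right), one point per library, coloured by treatment, with linear axes from 0. In the left panel the first FoEV library has the highest CLU at 86.5 CPM, and in the right panel Co libraries hold both ends of the range, at 22.0 and 217 CPM of MUC1.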

How the data were processed

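Total RNA of 15 embryo pools was sequenced by the authors with a low-input kit that selects strand, as single-end reads. The deposited read counts per gene are raw, without normalization. The submitters' processing notes name Trim Galore 0.4.3.1, HISAT2 2.1.0 and featureCounts 1.6.3, whereas the study's methods name QuasR for counting on ARS-UCD1.2 with the NCBI annotation; which made the table, and whether strand was used, is not given in the sources used here. The labels give day 7 and the study's text a day more.

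The counts of the unfiltered table were used for genes with at least 10 reads over the 15 libraries (17993 genes). Counts were scaled by TMM and fitted with treatment as the only factor over all libraries in edgeR 4.0.16 (estimateDisp, glmQLFit with robust = TRUE, glmQLFTest) in R 4.3.3, with Benjamini-Hochberg adjustment and a threshold of 0.05. Standard errors were derived from that test, as the absolute log2 fold change over the square root of its F statistic. The 95% intervals were built from them. Such standard errors can be unstable where the fold change is very close to 0. Alternatives were DESeq2 1.42.0, a robust dispersion with a likelihood ratio test as in the study, other filters, blocks and leaving out each library. No pair of libraries of the same treatment had the same counts within sampling noise, and pairs across treatments were not compared in this way. Figures were drawn with matplotlib 3.10.9. Symbols came from a later annotation, joined by gene identifier, without coordinates.

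The 10 genes, the marker lists and the families were chosen with earlier results of these data known. Apart from the 10 genes, the text names the 3 genes of each list with the highest mean and any gene called, the 5 scarce vesicle mRNAs with the smallest p, the 2 genes most like each of the 10, and genes said to be chosen after their values were seen or counted at 0 to 3 reads. Poisson intervals describe counting error alone, and whether copied reads were removed is not given in the sources used here. Sequences and transcript lengths were not used here.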

Additional observations from a re-analysis of the deposited data

Results flagged for a closer look

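GRP in the second FeEV library stood apart from its treatment. It had 10.99 CPM, and the other 4 FeEV libraries had 19.02 to 21.97 CPM, so that its gap took 0.731 of the range of the 5 libraries, beyond the 95% critical value of 0.71 of Dixon's test. This was 1 of 30 combinations of gene and treatment looked at, and chance flags about 1 in 20. Without this library the log2 fold change of GRP was -0.22 for FeEV vs. Co and 0.06 for FoEV vs. FeEV.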

How the results depend on the processing

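No alternative called any of the 10 mRNAs in any comparison. For FoEV vs. Co, however, the Wald test of DESeq2 gave no adjusted p for OVGP1, PAX8, HSPB6, CRIP2 and EPHX2, so it could not call them. The number of all genes called for FoEV vs. Co was 140 with the Wald test of DESeq2, 173 with every gene that had at least 1 read, 296 with the robust dispersion and likelihood ratio test, and 0 to 66 when 1 library was left out (66 without the second FoEV library, 16 without the fifth FeEV library, 14 without the third FoEV library, 5 without the fourth and 4 without the second FeEV library, 3 without the fifth FoEV library, 2 without the first FeEV or the first or second Co library and 0 without the fourth Co library), against 1. For FeEV vs. Co it was 1, 13 and 7 under the first 3 settings and 0 to 1 with 1 library left out, against 0, and for FoEV vs. FeEV 2, 22 and 40, and 0 to 1, against 0. The cause was not tested.

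The replicate numbers were not taken as pairs, since not every same-numbered pair correlated over 0.1: the deviations correlated at -0.31 to 0.345 for FoEV vs. Co (1 of 5 pairs over 0.1), -0.23 to 0.416 for FeEV vs. Co (3 of 5) and -0.002 to 0.44 for FoEV vs. FeEV (3 of 5), with means of 0.036, 0.143 and 0.182 beside -0.009, -0.036 and -0.045 for unlike numbers. In the same order, 1, 2 and 2 of 5 libraries were closest to their own number. These are the replicate numbers of the sample titles. The numbers in the descriptions differ from them, and libraries that share a description number were not correlated. Whether the libraries are paired by description number was therefore not checked. With the replicate block, 108, 1 and 1 genes were called for FoEV vs. Co, FeEV vs. Co and FoEV vs. FeEV, and with a block by the number in the descriptions 22, 1 and 6.

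For FoEV vs. Co, the log2 fold change turned for OVGP1 (0.028), GRP (0.094) and SAT1 (0.007) under the description block, and for CLU (-0.021) and SAT1 (0.057) under the robust dispersion. With 1 library left out it ran from -0.51 to 0.11 for OVGP1, -0.14 to 0.34 for CLU, -0.54 to 0.16 for MUC1, -0.30 to 0.027 for GRP and -0.15 to 0.19 for SAT1. It also crossed 0 for CRIP2 in FeEV vs. Co (-0.58 to 0.017) and for GNG11 in FoEV vs. FeEV (-0.12 to 0.28), and for HSPB6 it ran from 0.20 to 0.81, -1.001 to -0.05 and 0.60 to 1.47 in the 3 comparisons. The filtered table gave no value for OVGP1. Of the scarce vesicle mRNAs with a mean under 2 CPM, 11 of 18 (61.1%) were higher in FoEV than in Co, beside 58.7% of the 5552 genes under that mean. Their median log2 fold change was 0.21, beside 0.17 for those genes. Under 10 CPM, 28 of 39 (71.8%) were higher, beside 59.7% of 9401 genes. Under 5 CPM, 18 to 22 were higher with 1 library left out. Depth limits OVGP1 most, at 0 to 6 reads per library.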
